A study of Mus musculus with 6 samples.

Results

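The genes described here encode 10 chaperones, folding enzymes and one regulator of the endoplasmic reticulum: Hspa5, Hsp90b1, Dnajb9, Dnajc3, Calr, Canx, Pdia3, Pdia4, Ero1l and Xbp1. They were taken by symbol from a deposited table of 24421 gene rows, all 10 were found, and all 10 passed the filter on low counts. The levels were measured by RNA sequencing of engineered skeletal muscle grown from C2C12, an established mouse myoblast line, suspended in type I collagen, attached to artificial tendons and differentiated in horse serum. One group of 3 constructs received TNF-alpha, an inflammatory cytokine, at 100 ng/mL for 72 h. The other group of 3 received the vehicle, phosphate-buffered saline, and each construct gave 1 library. Both groups are of 1 cell line, for which the labels name no genetic change, and no other cell type is named as having been cast. The labels number the constructs as biological replicates but do not tie them to separate thawings or days of casting, so the tests reflect variation among these constructs only.

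Proteins that are secreted or sent to membranes fold inside the endoplasmic reticulum. There, chaperones of the HSP70 and HSP90 families hold unfolded chains, lectin chaperones hold chains that carry sugars, and disulfide isomerases form and shuffle the bonds between cysteines. When unfolded chains build up, sensor proteins of the membrane start the unfolded protein response, whose transcription factors, among them XBP1 and ATF6, raise many of the chaperone genes. In muscle the same compartment is continuous with the sarcoplasmic reticulum, which stores calcium for contraction.

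A promoter element first described in genes of this kind, the endoplasmic reticulum stress element (ERSE, letters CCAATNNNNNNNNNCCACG on either strand), was searched in RefSeq promoter windows of GRCm38.p6, from 250 bases before to 50 after each annotated start. It was present in 5 of the 10 genes, against 0.137% of all 27025 genes with a window. Since the element was first described in genes of this kind, that share does not count as a finding. These matches are shown because the 5 genes that carry them did not change alike, as the values further on show. The sequences run 5′ to 3′ on the gene's own strand, and capitals mark the fixed letters of the element.
Hspa5: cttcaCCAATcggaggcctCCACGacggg
Hsp90b1, far copy: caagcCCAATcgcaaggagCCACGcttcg
Hsp90b1, near copy: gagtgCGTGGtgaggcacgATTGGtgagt
Dnajc3: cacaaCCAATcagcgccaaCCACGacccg
Calr: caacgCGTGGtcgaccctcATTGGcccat
Canx: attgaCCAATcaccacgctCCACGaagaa
These stretches lie at chr2:34772020-34772048 on the plus strand for Hspa5 and at chr14:118937822-118937850 on the plus strand for Dnajc3. The Hsp90b1 copies lie at chr10:86705633-86705661 and chr10:86705528-86705556, the Calr element at chr8:84847070-84847098 and the Canx element at chr11:50325795-50325823, all on the minus strand. The Hspa5 match lies before the RefSeq start but inside the GENCODE gene. Calr and the near Hsp90b1 copy carry the element in the reverse orientation. The windows of Dnajb9, Pdia3, Pdia4, Ero1l and Xbp1 did not hold these letters. The Dnajb9 window lies wholly inside the GENCODE gene, so bases before that gene's start were not searched. The RefSeq starts of Pdia3 and Ero1l also lie inside their GENCODE genes, so fewer bases before those starts were searched.

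The Ero1l window is shown as well because this gene moved the opposite way. It held a match to the kB motif, the element bound by NF-kB, which 5.14% of all genes also held, and no other of the 10 genes had one. It also held the core of the hypoxia response element (ACGTG on either strand), which 21.8% of all genes held and which was also present in the windows of Hspa5, Calr, Dnajb9 and Dnajc3. Capitals mark the matched letters.
Ero1l, kB: tgtggctcggGGGATACCCCgaccccggaa
Ero1l, hypoxia core: cgcgccgctgCACGTccgcagggga
The first stretch lies at chr14:45318754-45318783 and the second at chr14:45318621-45318645, on the minus strand. Both lie before the RefSeq start, but the GENCODE gene of Ero1l starts within the kB match and spans the hypoxia core. Other motifs, the unfolded protein response element (TGACGTGG, in 0.714% of all genes), ERSE-II (ATTGGNCCACG, 0.0444%) and the amino acid response core (TGATGCAA, 1.03%), matched none of the 10 windows. A match of letters is a description of the sequence and not a measured binding site.

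The libraries held 81713008 to 93533748 counts assigned to genes, and the 10 genes had between 4490 and 172290 counts each in a library. Markers of myotubes were present in both groups: all 14 were at or above 1 CPM in at least 1 library of each group. CPM gives the counts of a gene relative to the library total. That total was unscaled for the markers of this paragraph and TMM-scaled for the levels of all other genes given below. Their summed level was 14090 to 16430 CPM in the vehicle libraries and 8058 to 8996 CPM in the TNF-alpha libraries, and 12 of the 14 fell. Of 10 markers of undifferentiated or cycling myoblasts, 9 fell and 1 rose, from a summed 774 to 849.8 CPM to 246 to 268 CPM. Of 10 fibroblast markers, 8 were tested, of which 6 fell, among them the collagen genes Col1a1, Col1a2 and Col3a1, and 2, Dcn and Pdgfra, rose. The summed level of this list was 9500 to 10060 CPM in the vehicle libraries and 10650 to 11630 CPM in the TNF-alpha ones. Within it, Dcn was at 1810 to 2364 CPM in the vehicle libraries and at 5724 to 6161 CPM in the TNF-alpha libraries. Of 8 macrophage markers, 5 were tested and 4 rose (summed level 14.4 to 15.4 CPM and 89.2 to 104 CPM). Cd14 (8.84 to 9.6 CPM and 67.6 to 81.8 CPM) and Cd68 (4.84 to 4.88 CPM and 18.7 to 20.3 CPM) made up most of these sums. Csf1r and Lyz2 rose too, but reached at most 1.66 and 0.385 CPM, and Itgam did not pass. C1qa was at 0 counts in all 6 libraries and Ptprc at 0 in all TNF-alpha libraries. Of 6 endothelial markers, 4 were tested, of which Vwf rose and Tek fell. The part of these shifts in the results on folding genes was not tested. In whole constructs, fewer cells of a type and less RNA per cell cannot be told apart.

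With TNF-alpha, 1 of the 10 genes rose, 5 fell and 4 did not pass. The gene that rose was the disulfide oxidase gene Ero1l, by 25-fold. Those that fell were Dnajc3, Pdia4, Calr, Xbp1 and Pdia3, by 1.16-fold to 1.77-fold. The main luminal chaperone genes Hspa5 and Hsp90b1, and Canx and Dnajb9, did not pass. The test was edgeR's quasi-likelihood test with Benjamini-Hochberg adjustment over 15792 genes, passed at an adjusted p under 0.05. Over all those genes 27.6% rose and 27.9% fell, together 55.5%. The median log2 fold change was -0.20 over the 10 genes and 0.00481 over all genes. With so few genes, a share of 5 in 10 that fell is read as a count and not as a property of the group. In 6 of the 10 genes the TNF-alpha and vehicle libraries did not overlap, beside 64.5% of all genes (32.6% with TNF-alpha above vehicle and 31.9% below).

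**Figure D1:**
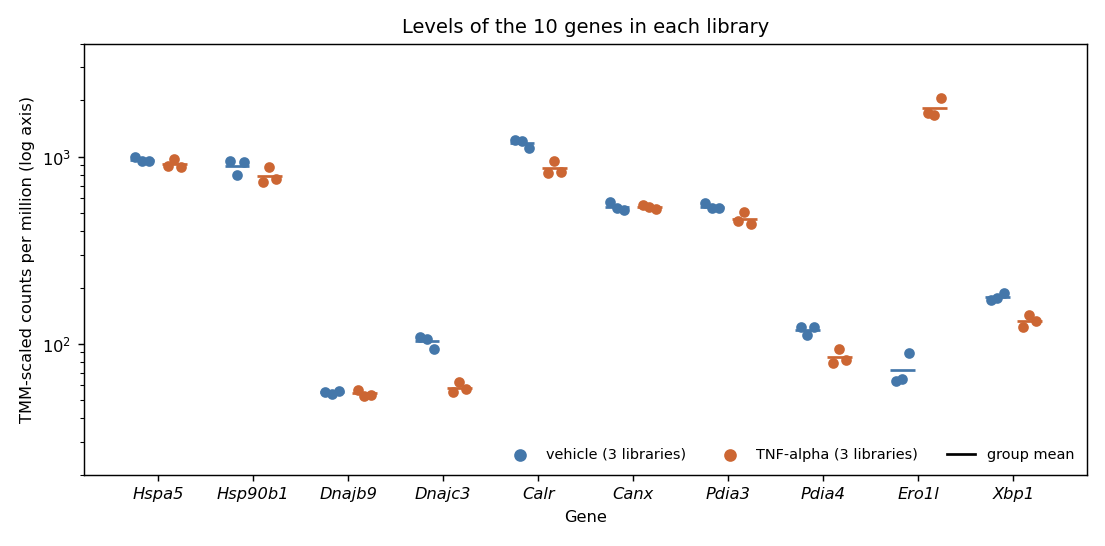
Level of each of the 10 genes, in TMM-scaled CPM on a log axis, in 3 vehicle libraries (blue points) and 3 TNF-alpha libraries (orange points), with a line at each group mean. Ero1l goes from 72.6 to 1815 CPM, while the points of Hspa5, Hsp90b1, Dnajb9 and Canx overlap between groups.

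Hspa5 (GRCm38 chr2:34771970-34777547, plus strand) encodes BiP, the HSP70 chaperone of the endoplasmic reticulum, which binds unfolded chains and also keeps the stress sensors inactive. Its level was 1002, 943 and 947 CPM in the vehicle libraries 1 to 3 and 891, 966 and 886 CPM in the TNF-alpha libraries 1 to 3. The groups overlapped, since TNF-alpha library 2 lay above vehicle libraries 2 and 3. The log2 fold change was -0.08 ± 0.07 (SE, n = 3 per group; edgeR adjusted p = 0.388), with a 95% interval of -0.24 to 0.08. The interval allows changes up to these sizes in either direction.

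Hsp90b1 (chr10:86690209-86705509, minus strand) encodes GRP94, the HSP90 chaperone of the same compartment, which folds integrins and Toll-like receptors among others. Vehicle libraries 1 to 3 had 944.5, 796 and 939 CPM, and TNF-alpha libraries 1 to 3 had 734, 877 and 763 CPM. Vehicle library 2 was low and TNF-alpha library 2 high within their groups, and the groups overlapped. The log2 fold change was -0.18 ± 0.10 (edgeR adjusted p = 0.159; 95% interval -0.40 to 0.05). Without vehicle library 2 it was -0.25 (adjusted p = 0.0582), and without TNF-alpha library 2 it was -0.26 (adjusted p = 0.0649). Its gene overlaps 1810014B01Rik on the opposite strand, and whether the counting used strand is not given in the sources used here.

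The J-domain co-chaperones, which start the ATPase cycle of BiP, parted from each other. Dnajc3 (chr14:118937976-118981697, plus strand), encoding p58IPK, which also inhibits the eIF2alpha kinase PERK, had 109.5, 107 and 94.2 CPM in the vehicle libraries and 55.6, 62.4 and 57.5 CPM in the TNF-alpha libraries. Every TNF-alpha library lay well below every vehicle library. Dnajc3 fell by 0.82 ± 0.08 on the log2 scale (edgeR adjusted p = 3.44e-05), a change in level of -43.5%. It was the largest fall among the 10 genes.

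Dnajb9 (chr12:44205559-44210326, minus strand), encoding ERdj4, which helps to clear misfolded proteins and to restrain the sensor IRE1, held 55.2, 54.1 and 55.9 CPM in the vehicle libraries. It had 56.7, 52.9 and 53.6 CPM in the TNF-alpha libraries. The groups overlapped and the whole range was narrow. The log2 fold change was -0.02 ± 0.06 (edgeR adjusted p = 0.809; 95% interval -0.15 to 0.11). Dnajb9 overlaps Mir5627 on the opposite strand, and its counts carried decimals in 5 libraries.

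The lectin chaperones hold glycoproteins during folding, calreticulin (Calr) in the lumen and calnexin (Canx) in the membrane, and both bind calcium. Calr lies at chr8:84841850-84846934 and Canx at chr11:50293961-50325673, both on the minus strand. Calr had 1226, 1210 and 1116 CPM in the vehicle libraries and 823, 944 and 833 CPM in the TNF-alpha libraries, with no overlap. It fell by 0.45 ± 0.08 on the log2 scale (edgeR adjusted p = 0.00156; 95% interval -0.64 to -0.27). Canx had 572, 534 and 519 CPM in the vehicle libraries and 550.1, 539.6 and 523 CPM in the TNF-alpha libraries. Those values interleaved, and the log2 fold change was -0.01 ± 0.07 (adjusted p = 0.904; 95% interval -0.16 to 0.14).

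The disulfide isomerases both fell, but with different margins. Pdia3 (chr2:121413775-121438687, plus strand), encoding ERp57, which works with calreticulin and calnexin, had 563, 531 and 530.4 CPM in the vehicle libraries and 454, 506 and 437 CPM in the TNF-alpha libraries. The groups did not overlap, and the gap between vehicle library 3 and TNF-alpha library 2 was small. Pdia3 fell by 0.22 ± 0.08 on the log2 scale (edgeR adjusted p = 0.0354). The call was lost without vehicle library 1 (adjusted p = 0.106), vehicle library 2 (0.0574), TNF-alpha library 1 (0.0802) or TNF-alpha library 3 (0.145). The adjusted p lay between 0.0163 and 0.145 across the alternatives. Pdia3 also overlaps Catsper2 on the opposite strand.

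Pdia4 (chr6:47796141-47813430, minus strand), encoding ERp72, had 123, 112 and 123 CPM in the vehicle libraries and 78.8, 93.6 and 82.4 CPM in the TNF-alpha libraries. It did not overlap between groups and fell by 0.49 ± 0.08 on the log2 scale (edgeR adjusted p = 7.21e-04; 95% interval -0.67 to -0.32). Pdia4 overlaps Mir704 on the same strand, and its counts carried decimals in 4 libraries.

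**Figure D2:**
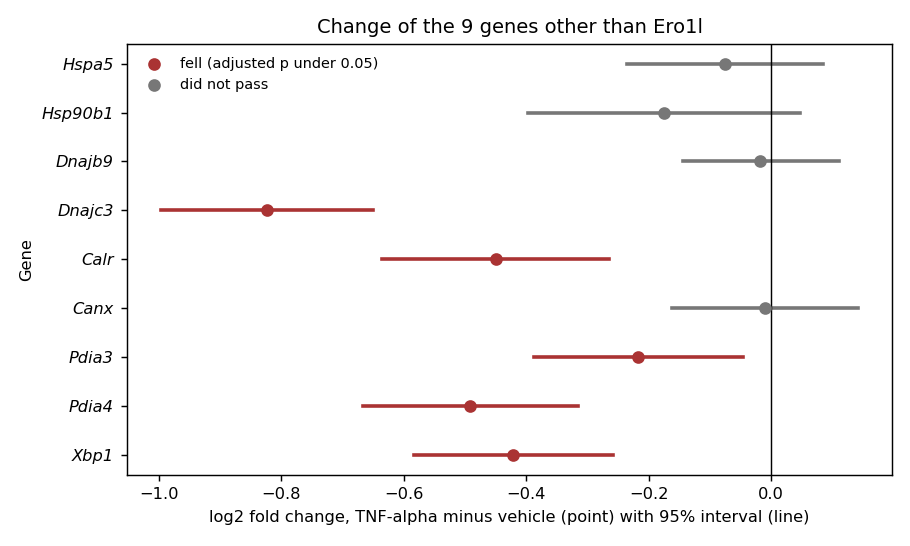
Log2 fold change (TNF-alpha minus vehicle, points) of the 9 genes other than Ero1l, with 95% intervals (lines), red for genes that fell past the test and grey for the rest. The intervals of Hspa5, Hsp90b1, Dnajb9 and Canx include 0, and Dnajc3 lies lowest at -0.82.

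Ero1l, now named Ero1a, encodes the oxidase that passes oxidising equivalents to protein disulfide isomerase and makes hydrogen peroxide in doing so. It lies on GRCm38 chromosome 14 from 45283087 to 45318771 on the minus strand. Its level was 63.7, 65.2 and 89.0 CPM in the vehicle libraries 1 to 3 and 1721, 1669 and 2056 CPM in the TNF-alpha libraries 1 to 3. The lowest TNF-alpha library was far above the highest vehicle library. The log2 fold change was 4.64 ± 0.17 (edgeR adjusted p = 5.34e-07; 95% interval 4.26 to 5.03), and it ranked 77 of 15792 genes from the top. Vehicle library 3 was higher than the others, and without it the log2 fold change was 4.81.

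Xbp1 (chr11:5520659-5525893, plus strand) encodes the transcription factor that IRE1 activates by splicing its messenger RNA, and it drives many genes of folding and degradation. It had 171, 175 and 188 CPM in the vehicle libraries and 123, 143 and 133 CPM in the TNF-alpha libraries, without overlap. Xbp1 fell by 0.42 ± 0.07 on the log2 scale (edgeR adjusted p = 0.00109; 95% interval -0.58 to -0.26). The table counts reads per gene, so the spliced and unspliced forms are summed and the splicing itself was not measured.

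The order of levels could be compared between genes after dividing by exonic length, as CPM per kb of the GENCODE M21 gene model. In vehicle libraries Calr was highest at 411 ± 20.6 CPM per kb (SD, n = 3), then Hspa5 (228 ± 7.87) and Hsp90b1 (222 ± 20.9), whose spreads overlap. Pdia3 (173 ± 5.96) and Canx (115 ± 5.81) followed. Xbp1 (54.9 ± 2.70) and Pdia4 (49.8 ± 2.63) lay within about their summed SDs of each other, as did Dnajb9 (21.6 ± 0.352) and Dnajc3 (20.1 ± 1.60). Even so, Xbp1 ranked above Pdia4 and Dnajb9 above Dnajc3 in each of the 3 vehicle libraries. Ero1l was lowest at 13.7 ± 2.68 CPM per kb, in rank 10 in each of the 3 vehicle libraries.

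In TNF-alpha libraries Ero1l stood at 344 ± 39.8 CPM per kb, in rank 1 in libraries 1 and 3 and in rank 2, behind Calr, in library 2. Calr was at 301 ± 23.4 CPM per kb, so that Ero1l and Calr did not differ beyond their summed spreads. The remaining genes kept their order from Hspa5 (216 ± 10.6) to Dnajc3 (11.4 ± 0.684). Of the summed length-corrected level of the 10 genes, Ero1l took 1.05% ± 0.222 in the vehicle libraries and 24.1% ± 2.91 in the TNF-alpha libraries. The share of Calr went from 31.4% ± 1.42 to 21% ± 1.0. Without Ero1l, the other 9 genes together took 0.463% ± 0.0198 of all counts in the vehicle libraries and 0.387% ± 0.0236 in the TNF-alpha libraries, with no overlap between the groups.

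**Figure D3:**
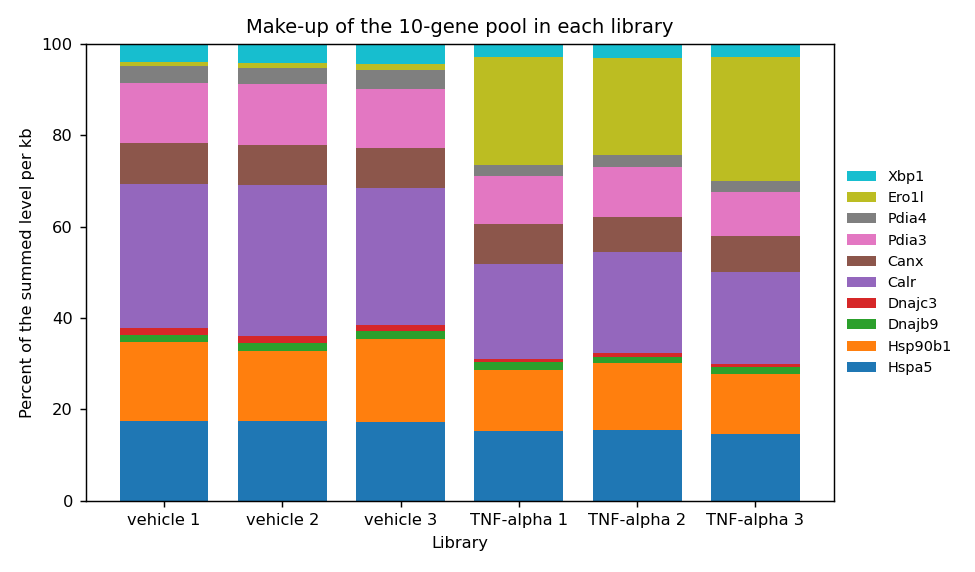
Share of each gene in the summed length-corrected level of the 10 genes, in percent, for each of the 6 libraries as stacked bars. The Ero1l band (olive) is 0.888% to 1.31% of the vehicle bars and 21.3% to 27.1% of the TNF-alpha bars.

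Ratios within a library do not depend on how libraries are scaled, and 5 pairs of genes with like roles were compared, with pairs chosen after the levels were seen. The length-corrected ratio of Calr to Canx was 3.56 ± 0.113 in the vehicle libraries and 2.63 ± 0.209 in the TNF-alpha libraries. That of Dnajc3 to Dnajb9 was 0.933 ± 0.0845 and 0.535 ± 0.0495, and that of Pdia4 to Pdia3 was 0.289 ± 0.0135 and 0.238 ± 0.0103. The ratio of Ero1l to its paralog Ero1lb was 10.5 ± 2.24 and 145 ± 18.1. In these 4 pairs the groups did not overlap, and each had an exact two-sided permutation p of 0.1 on the log2 ratio, the smallest that 3 against 3 libraries allow (0.125 adjusted over the 5 pairs). The ratio of Hsp90b1 to Hspa5 was 0.971 ± 0.0791 and 0.906 ± 0.0442, with overlap (exact permutation p = 0.3).

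Libraries of a group also differed among themselves across these genes. TNF-alpha library 2 was the highest of the 3 TNF-alpha libraries for 7 of the 10 genes (Hspa5, Hsp90b1, Dnajc3, Calr, Pdia3, Pdia4 and Xbp1), beside 34.6% of all genes tested, and it was the lowest for Ero1l and Dnajb9. TNF-alpha library 2 was also highest for 43.7% of the 126 tested genes in 7 other lists of the endoplasmic reticulum, described below. By list, the share ran from 18.2% of the degradation genes to 88.9% of the prolyl isomerase and collagen chaperone genes. Without this library the log2 fold change was -0.12 for Hspa5, -0.52 for Calr, -0.28 for Pdia3, -0.48 for Xbp1 and 4.70 for Ero1l, and 1 of the 10 genes rose and 5 fell. Vehicle library 1 was likewise the highest vehicle library for 7 of the 10 genes, beside 32% of all genes tested. It was highest for 47.6% of the 126 genes, from 7.14% of the glycoprotein cycle list to 79.2% of the translocon list.

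**Figure D4:**
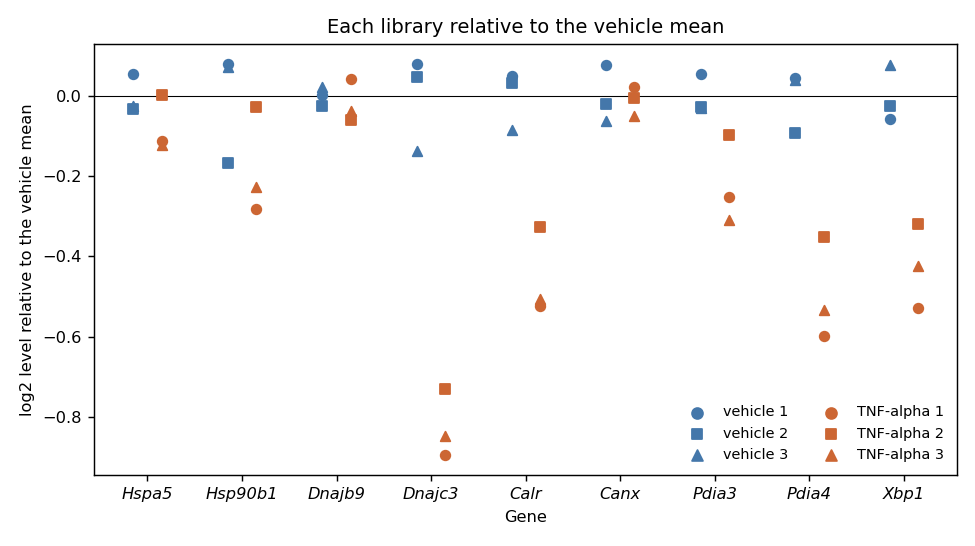
Log2 level of the 9 genes other than Ero1l relative to the vehicle mean, for each vehicle (blue) and TNF-alpha (orange) library, with circles, squares and triangles for libraries 1, 2 and 3 of a group. TNF-alpha library 2 (orange squares) lies above the other TNF-alpha libraries for 7 of the genes shown.

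The sensors and transcription factors of the unfolded protein response went both ways. Of 17 genes tested, 8 rose, 6 fell and 3 did not pass, with a median log2 fold change of 0.05. Atf4, the transcription factor made when eIF2alpha is phosphorylated, rose from 636 ± 46.7 to 1064 ± 84.1 CPM (0.74 ± 0.09; edgeR adjusted p = 1.37e-04). Ddit3, encoding the stress factor CHOP, rose from 40.03 ± 3.20 to 64.5 ± 5.13 CPM (0.69 ± 0.08; adjusted p = 1.54e-04). Ppp1r15a, the phosphatase regulator that reverses eIF2alpha phosphorylation, rose by 0.81 ± 0.07, and Nfyb, a subunit of the factor that binds CCAAT, by 0.72 ± 0.08.

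Of the 3 classical sensors, Ern1, encoding IRE1alpha, rose from 34.1 ± 2.00 to 46.5 ± 3.40 CPM (0.45 ± 0.08; edgeR adjusted p = 0.00107). Eif2ak3, encoding PERK, fell from 36.02 ± 1.41 to 29.4 ± 1.87 CPM (-0.30 ± 0.07; adjusted p = 0.0063). Atf6 had a log2 fold change of -0.17 ± 0.09 and did not pass (adjusted p = 0.129). It passed when vehicle library 3 was left out (adjusted p = 0.0339, with 0.0339 to 0.342 across the alternatives). Mbtps1, a protease that cuts ATF6 on the way to its active form, fell by 0.55 ± 0.06. Mbtps2, the protease that cuts after it, did not pass (log2 fold change 0.046). Transcript levels of sensors do not measure their activity.

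Of 18 other cofactors of the HSP70 system and resident proteins of the compartment, 6 fell, 3 rose and 9 did not pass (median -0.16). Creld2 fell by 0.62 ± 0.08 (edgeR adjusted p = 2.41e-04), Manf, a secreted factor of stressed cells, by 0.61 ± 0.09 (adjusted p = 3.90e-04), and Dnajb11, encoding the co-chaperone ERdj3, by 0.56 ± 0.07 (adjusted p = 2.21e-04). Creld1 rose by 0.58 ± 0.08. Hyou1, encoding the nucleotide exchange factor GRP170, had 145 ± 4.54 and 129.7 ± 15.4 CPM (-0.16 ± 0.09; adjusted p = 0.136), and Sdf2l1 had a log2 fold change of -0.31 ± 0.13 (adjusted p = 0.065). Without TNF-alpha library 2 both passed, with adjusted p = 0.0148 for Hyou1, in a range of 0.0148 to 0.361. For Sdf2l1 the adjusted p was then 0.0125. It was 0.0472 without vehicle library 3 and 0.0455 with upper-quartile scaling, in a range of 0.0125 to 0.212.

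Among 22 other disulfide isomerases, oxidases and their partners, 7 rose, 8 fell and 7 did not pass (median -0.08). P4hb, encoding protein disulfide isomerase itself, the main partner of ERO1 oxidases, rose from 1091 ± 45.2 to 1805 ± 76.6 CPM (0.73 ± 0.07; edgeR adjusted p = 5.67e-05). Ero1lb, the paralog of Ero1l, rose from 8.70 ± 0.341 to 15.7 ± 0.181 CPM (0.85 ± 0.08 on the log2 scale; adjusted p = 4.01e-05). Prdx4, the peroxiredoxin that uses hydrogen peroxide of this compartment, fell from 92.4 ± 9.93 to 43.3 ± 5.62 CPM (-1.10 ± 0.11; adjusted p = 8.63e-05). The glutathione peroxidase genes of the list went both ways: Gpx7 fell (log2 fold change -2.558) and Gpx8 rose (0.619). Vkorc1, encoding vitamin K epoxide reductase, fell by 1.12 ± 0.08, and Pdia6 did not pass (-0.08 ± 0.07; adjusted p = 0.362).

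Of 14 tested genes of the glycoprotein folding cycle, which calreticulin and calnexin serve, 6 fell, 1 rose and 7 did not pass (median -0.11). Uggt1, the sensor that returns misfolded glycoproteins to the lectins, fell by 0.20 ± 0.07 (edgeR adjusted p = 0.0302). That call was lost without vehicle library 1 (adjusted p = 0.0784), vehicle library 2 (0.0887), TNF-alpha library 1 (0.0825) or TNF-alpha library 3 (0.0903), in a range of 0.0148 to 0.0903. Lman2, a cargo lectin, fell by 0.37 ± 0.06 and Os9, a lectin of degradation, by 0.31 ± 0.06. Prkcsh, the beta subunit of glucosidase II, rose by 0.53 ± 0.05. In this list 1 gene rose in the full set and 2 did without TNF-alpha library 1.

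The prolyl isomerases and the collagen chaperone fell in most cases: 7 of 9 fell, 0 rose and 2 did not pass (median -0.38). Serpinh1, encoding HSP47, the chaperone of procollagen, fell from 794 ± 35.2 to 528 ± 27.2 CPM (-0.59 ± 0.07; edgeR adjusted p = 1.66e-04), and Fkbp2 fell by 0.67 ± 0.08. The collagen genes Col1a1, Col1a2 and Col3a1 fell in the same libraries, and their part was not tested.

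Genes of degradation from the endoplasmic reticulum were mixed, with 5 of 22 rising, 8 falling and 9 not past the test (median 0.04). Herpud1, a stress-induced partner of the ligase HRD1, fell from 269 ± 13.3 to 186 ± 11.98 CPM (-0.53 ± 0.07; edgeR adjusted p = 2.65e-04). Derl1 and Ube2g2 fell by 0.46 ± 0.05 and 0.48 ± 0.06, and Faf2 rose by 0.44 ± 0.06. Sel1l, the scaffold of the HRD1 complex, fell by 0.20 ± 0.07 (adjusted p = 0.0321). Its call was lost without vehicle library 1 (adjusted p = 0.0568), vehicle library 2 (0.104), TNF-alpha library 1 (0.0876) or TNF-alpha library 2 (0.0573), in a range of 0.0152 to 0.104.

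Of 24 genes of the translocon, signal peptidase and oligosaccharyltransferase, which bring chains into the compartment and add sugars, 3 rose, 6 fell and 15 did not pass (median -0.05). Ddost and Sec61b fell by 0.50 ± 0.08 and 0.56 ± 0.09, and Sec61a2 rose by 0.52 ± 0.08. The number that fell was 3 without vehicle library 1 and 3 without TNF-alpha library 3.

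These 7 lists of the endoplasmic reticulum hold 126 tested genes, of which 27 rose, 47 fell and 52 did not pass. Their median log2 fold change was -0.10. Beside these counts, 27.6% of all genes tested rose and 27.9% fell. The lists, like the 10 genes, were chosen with earlier results of these libraries known.

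**Figure D5:**
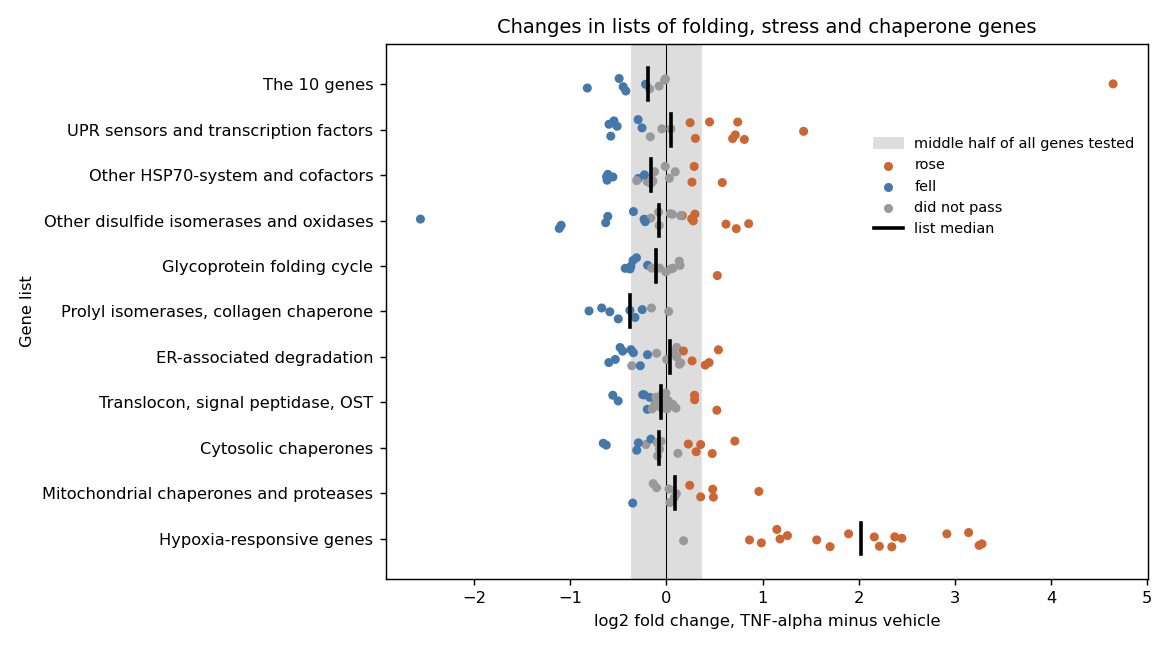
Log2 fold change (TNF-alpha minus vehicle) of every tested gene in each list, with orange for genes that rose, blue for genes that fell, grey for those that did not pass, a black line at each list's median and a grey band from the 25th to the 75th percentile of all genes (-0.36 to 0.36). OST stands for oligosaccharyltransferase. The hypoxia-responsive list lies to the right with a median of 2.03, while the medians of the 7 lists of the endoplasmic reticulum lie between -0.38 and 0.05.

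Chaperones of other compartments served as a comparison. Of 16 cytosolic chaperone genes, 5 rose, 5 fell and 6 did not pass (median -0.08). Dnajb1, an HSP40 induced by heat shock factor, rose by 0.71 ± 0.06 and Hspa4l by 0.48 ± 0.08, whereas Dnaja1 fell by 0.66 ± 0.08. Of 12 mitochondrial chaperones and proteases, 5 rose, 1 fell and 6 did not pass (median 0.09). Lonp1, the matrix protease, rose from 127 ± 7.94 to 248 ± 13.5 CPM (0.96 ± 0.07; edgeR adjusted p = 1.02e-05), Dnaja3 rose by 0.49 ± 0.07 and Hspe1 fell by 0.35 ± 0.08. With upper-quartile scaling, 2 of the mitochondrial genes fell. Whether the compartments differ from each other was not tested.

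Ero1l is known from other work as a gene that hypoxia-inducible factors raise, so a list of 18 hypoxia-responsive genes was set beside it. Of these, 17 rose, 0 fell and 1, Pfkfb4, did not pass (median log2 fold change 2.03). Slc2a1, the glucose transporter GLUT1, had 115, 109 and 139 CPM in the vehicle libraries and 1152, 1143 and 1221 CPM in the TNF-alpha libraries (log2 fold change 3.28 ± 0.11; edgeR adjusted p = 1.56e-07). Ankrd37 rose from 3.29 ± 0.303 to 31.3 ± 1.70 CPM (3.25 ± 0.10; adjusted p = 1.07e-07). The part of these changes in the rise of Ero1l was not tested, and oxygen was not measured in the files used here.

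The genes with an ERSE in their promoter window could be counted beside the 10 genes. Of 37 such genes, 30 were in the table and 23 were tested, of which 3 rose, 11 fell and 9 did not pass (median log2 fold change -0.36). Leaving out the 5 genes shown above, 18 were tested, of which 3 rose, 9 fell and 6 did not pass (median -0.41). Over all genes tested, 27.6% rose and 27.9% fell. Creld2, Ero1lb, Pdia6, Syvn1 and Derl3 had already been counted in the lists above. Several of them, such as Xlr3a, Xlr3b and Xlr3c, are close paralogs at low levels that can share reads. Spats2l and Tdrd9, which fell, were low as well, with vehicle means of 0.711 and 2.22 CPM. Within the 10 genes, the 5 with the element ran from -0.82 (Dnajc3) and -0.45 (Calr) to -0.18 (Hsp90b1), -0.08 (Hspa5) and -0.01 (Canx). Among those without it in the window searched, Xbp1, Pdia4 and Pdia3 fell too, Dnajb9 did not pass and Ero1l rose (4.64). The letters were thus present on both sides of the call.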

How the data were processed

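The values deposited are estimated counts by gene: 20.1% to 21% of the values of a library carry decimals, although the submitters' design text speaks of integers. Per the submitters' processing notes the tools were TopHat2 2.1.1, Bowtie2 2.3.5.1, featureCounts, Subread 2.0.0 and DESeq2, on mm10 and GRCm38. Their options and use of strand: not given in the sources used here. Columns were matched to samples by library name, and groups came from titles. Counts were rounded, filtered with filterByExpr, scaled with TMM and tested with edgeR 4.0.16 (R 4.3.3) by the robust quasi-likelihood test with group as the only term. The planned test was written for counts that might carry decimals. Standard errors come from the F statistic. The biological coefficient of variation was 12.1%. DESeq2 1.42.0 and limma 3.58.1 (voom) were alternatives. The procedure was also run on simulated counts with far fewer changed genes than were called here. That run therefore does not give the error rate in these data. Replicates differed by more than sampling noise (chi-square per degree of freedom 23.1 to 70.6).

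The members and lists were chosen with earlier results of these data known. Named genes were the 10 members, 18 fixed genes and, per list, the 2 called genes with the smallest p in the main direction and 1 in the other. Of the listed genes, 1 was found under an older symbol. Of the 10 genes, 9 had decimal counts in 1 to 5 libraries. Gene positions and exonic lengths come from GENCODE M21 on GRCm38, and promoter windows from RefSeq on GRCm38.p6, in which all 10 genes were matched.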

Additional observations from a re-analysis of the deposited data

How the results depend on the processing

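The counts of 1 gene risen and 5 fallen among the 10 were the same under upper-quartile and median-ratio scaling, without a filter, with a filter of at least 1 CPM in at least 3 libraries, DESeq2, limma-voom and no robust estimation. Leaving out 1 library gave 4 to 5 fallen, 3674 to 4146 of all genes risen and 3747 to 4317 fallen. In each case the gene lost was Pdia3. The Canx log2 fold change, between -0.046 and 0.028 with 1 library left out, changed sign, to 0.028 without vehicle replicate 1 and 0.005 without TNF-alpha replicate 3, and passed in no alternative. The log2 fold change of Ero1l ranged from 4.54 to 4.81 and that of Dnajc3 from -0.89 to -0.78. Same-numbered libraries did not deviate together (correlations of 0.0428, -0.0454 and -0.114 across genes), so the numbers were not used to pair the samples. With 3 libraries per group this cannot exclude a shared casting or batch, which the labels do not give. With the replicate block 4242 genes rose and 4244 fell, with 1 risen and 4 fallen among the 10 genes, and the Pdia3 adjusted p was 0.0507. In depth, the 10 genes had at least 4490 counts each in every library.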
